A study of Mus musculus with 4 samples.

Results

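Solute carrier genes, the Slc families of membrane transporters, were followed along the nephron and through the other lineages of the embryonic mouse kidney. A gene entered when its symbol was Slc followed by a family number, letters and a member number, and when it had at least 500 UMIs (unique molecular identifiers, the counts of captured transcripts) over all barcodes. This left 114 of the 358 genes with such a name, out of 27932 genes in any table. Members were thus chosen by their total count, a measured value, so totals are given as a description.

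The data came from kidneys of E14.5 embryos, profiled with Drop-seq, which catches single cells with barcoded beads in droplets and counts the 3' ends of their transcripts. Libraries wildtype 1 and wildtype 2 came from wildtype embryos. Libraries mutant 1 and mutant 2 came from embryos labelled -/- for the Abd-B Hox genes Hoxa9, Hoxa10, Hoxa11, Hoxd9, Hoxd10 and Hoxd11. All 4 libraries shared the age and a mixed strain background, mostly CD-1 and 129, and the labels do not say which or how many embryos went into each.

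Solute carriers move ions, sugars, amino acids, metals, vitamins and metabolites across membranes. In the mature nephron, the proximal tubule reclaims most filtered solutes, the thick ascending limb of the loop of Henle takes up salt through Slc12a1, and the collecting duct makes the final adjustments. Other members sit in the inner membrane of mitochondria, the Golgi apparatus or lysosomes and serve most cells, so the family spans segment markers and general housekeeping.

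The regions upstream of the 3 members with the largest log2 fold changes in a tubule segment are shown first, as the sequence beside the segment patterns below. Each is the 250 bases before a RefSeq transcription start in GRCm38.p6, read 5' to 3' on the gene's strand, with capitals kept for a match to AAGTCCA, a motif of HNF4, or AAGGTCA, a motif of the estrogen-related receptors, on either strand. Slc12a1 lies at chr2:125152350-125152599 on the plus strand, Slc39a5 has starts at chr10:128401225-128401474 on the minus strand and chr10:128400467-128400716 on the minus strand, and the window of Slc4a4 is the one before its second start, at chr5:89027716-89027965 on the plus strand.
Slc12a1: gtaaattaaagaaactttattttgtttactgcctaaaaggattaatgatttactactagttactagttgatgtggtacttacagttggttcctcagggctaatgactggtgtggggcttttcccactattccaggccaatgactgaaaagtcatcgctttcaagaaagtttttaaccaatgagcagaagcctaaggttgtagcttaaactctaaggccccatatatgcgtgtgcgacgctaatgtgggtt
Slc39a5 start 1: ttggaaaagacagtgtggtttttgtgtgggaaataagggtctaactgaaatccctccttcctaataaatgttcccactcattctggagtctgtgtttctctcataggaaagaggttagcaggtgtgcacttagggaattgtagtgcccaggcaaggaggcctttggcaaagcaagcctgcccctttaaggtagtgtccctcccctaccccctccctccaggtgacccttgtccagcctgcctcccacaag
Slc39a5 start 2: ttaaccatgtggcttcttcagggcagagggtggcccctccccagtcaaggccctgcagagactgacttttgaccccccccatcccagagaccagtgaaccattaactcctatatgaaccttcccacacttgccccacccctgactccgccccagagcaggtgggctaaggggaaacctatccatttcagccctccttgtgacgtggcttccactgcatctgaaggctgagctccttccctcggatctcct
Slc4a4 start 2: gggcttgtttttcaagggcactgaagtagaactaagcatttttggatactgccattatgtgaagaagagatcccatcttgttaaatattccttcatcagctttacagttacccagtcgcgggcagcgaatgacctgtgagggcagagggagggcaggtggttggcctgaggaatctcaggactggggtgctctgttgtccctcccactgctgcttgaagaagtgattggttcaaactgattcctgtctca

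None of these 4 windows held either motif, so they carry no capitals. Of the members, 86 matched a RefSeq promoter by symbol, with 119 windows. AAGTCCA was found in 3.36% of all 32851 RefSeq promoters of the same length and in 3.36% of the members' windows. For AAGGTCA, the shares were 4.08% and 0.84%. In the 23 windows of the 15 matched members called higher in proximal tubule, the shares were 0% and 0%. So few windows can hold no match at the shares of all promoters, and these values show no lack of either motif. Both strands were searched, both motifs were searched separately, and a match is only a description of the letters in the window.

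The members covered 38 families. Grouped by family number, under what each family is best known to carry, 26 fell under mitochondrial inner membrane carriers, 17 under amino acids, 16 under metal ions and 14 under nucleotide sugars and the Golgi. Another 7 fell under bicarbonate and other anions, 6 under sodium, potassium and chloride, 5 under sugars, and 5 under organic anions and cations. Lipids and fatty acids, monocarboxylates, and phosphate and sulfate had 4 members each, and nucleosides, vesicular and lysosomal transport, and vitamins and cofactors had 2 each. Single members can carry something else than their class, as Slc43a3, a purine nucleobase transporter in an amino acid family, and Slc5a3, a myo-inositol transporter in a sugar family. The highest totals belonged to the ADP/ATP carriers Slc25a4 (63752 UMIs) and Slc25a5 (53053 UMIs) and to the mitochondrial phosphate carrier Slc25a3 (34181 UMIs). Just inside the limit were Slc12a9 (509 UMIs) and Slc4a8 (505 UMIs), with Slc45a4 the last above it. Just outside were Slc12a7 (497 UMIs) and Slc25a16 (492 UMIs). All 114 members had a position in GENCODE vM21 on mm10, and 36 of them shared exon sequence with another gene, 5 on the same strand. How the counting used strand is not stated, so counts of such members are uncertain, and those named below that are affected are Slc5a3 with Mrps6, Slc39a13 with Psmc3, Slc35a4 with Apbb3, and, on the opposite strand to predicted or noncoding genes, Slc20a1, Slc33a1, Slc44a1, Slc2a1, Slc6a6, Slc29a1, Slc30a7, Slc25a23 and Slc25a37. Slc48a1 overlaps Hdac7 by 29 bases.

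The libraries held 1061 to 6428 barcodes and 3572346 to 24834658 UMIs each, and 11781 of 15144 barcodes were kept, with median depths of 2465 to 3585 UMIs per cell. Members accounted for 0.576% (wildtype 1), 0.541% (wildtype 2), 0.452% (mutant 1) and 0.536% (mutant 2) of the UMIs of kept cells. Barcodes with over 10% mitochondrial UMIs, which were left out, made up 7.76% of wildtype 1, 9.06% of wildtype 2, 19.6% of mutant 1 and 29.1% of mutant 2. Pairs of libraries shared at most 2 barcode sequences. Over all kept cells of wildtype 1, wildtype 2, mutant 1 and mutant 2, in that order, CPM (counts per 1000000) were 125, 142, 136 and 150 for Hoxa9, 148, 197, 91.9 and 117 for Hoxa10 and 19.2, 72, 27.8 and 38.4 for Hoxa11. They were 26.4, 44.7, 51.8 and 43.9 for Hoxd9, 39.4, 46.6, 64.7 and 78.5 for Hoxd10 and 74.3, 60.4, 116 and 180 for Hoxd11. Transcripts of all 6 targeted genes were thus counted in the mutant libraries, and Hoxd10 and Hoxd11 stood higher there than in the wildtype libraries. How each allele was made is not given, so counts of 3' ends are no check of the genotypes. Cells were sorted into 12 lineages by lists of 144 marker genes, none of them a solute carrier, of which 141 were in the tables. Ahsp, Epb42 and Kap were missing, which left 11 genes for the proximal tubule, 10 for erythroid cells and 12 for each other lineage. A cell needed UMIs of at least 3 different genes of a list and at most 0.5 times as many of any other list, and 6205 cells passed.

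Gates gave 115 cells of the proximal tubule, 252 of the loop and distal tubule, 168 of the ureteric bud and collecting duct, and 730 of the early nephron, the vesicles and bodies from which nephrons form. Mutant 1 had 4 proximal tubule cells, too few for a sum, so proximal tubule values rest on 3 libraries. Nephron progenitors came from the wildtype libraries (300 and 700 cells, against 0 and 8 in the mutant libraries). Of 34 gated erythroid cells 30 were in wildtype 2, and of 42 gated neural cells 35 were in mutant 2. Those libraries gave the only erythroid and neural sums of at least 10 cells, and each such lineage was assumed to vary like the others. In every lineage, every marker of its own list found in the tables was detected. In proximal tubule sums the marker list summed to 2148 to 3918 CPM, against 236 to 545 CPM for loop and distal markers and 11.2 to 27.9 CPM for ureteric markers. In loop and distal sums its own list summed to 3067 to 4193 CPM and the proximal list to 177 to 212 CPM. Early nephron markers summed to 1008 to 1480 CPM in loop and distal sums. They came to 366 to 454 CPM in proximal sums and 352 to 921 CPM in ureteric sums. Cells were gated by these lists, so a high own list follows from the gate and is no check of it.

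In the proximal tubule, 18 of the 95 members that passed the filter on low counts were higher than in the mean of the other lineages, against 11.6% of the 9915 genes tested, and 10 were lower, against 2.47%. A call needed an adjusted p below 0.05 and a 2-fold difference. The 95 tested had a median log2 fold change of 0.24, against 0.06 over all genes; the other 19 members were not tested, and a gene high in a single lineage can pass that filter through it. The mean of the other lineages is taken on a log scale, so a lineage near 0 UMIs weighs heavily, and levels are given before each fold. CPM here and below carry edgeR's TMM scaling.

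Slc39a5, a zinc importer on chromosome 10 (128395931 to 128401229, minus strand), stood at 152 CPM in wildtype 1, 220 in wildtype 2 and 197 in mutant 2 in the proximal tubule. The early nephron followed with 11.1 CPM ± 6.57 (SD, n = 4) and the loop and distal tubule with 7.31 ± 5.84, and no UMI was found in endothelium, mural, erythroid or neural cells. The 3 proximal libraries did not overlap with any other sum, and the log2 fold change was 7.67 (SE 0.42, adjusted p = 3.69e-35). Slc4a4, the basolateral sodium bicarbonate cotransporter by which bicarbonate leaves the proximal cell (chromosome 5, 88886818 to 89239653, plus strand), stood at 195, 46.7 and 87.0 CPM in the same libraries. Its loop and distal values of 43.4, 16.1, 79.4 and 18.6 CPM in wildtype 1, wildtype 2, mutant 1 and mutant 2 overlapped with the proximal ones. Its log2 fold change against the mean of the other lineages was 4.73 (SE 0.46, adjusted p = 5.55e-17).

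Metal and metabolite carriers accompanied these. Slc39a8, an importer of zinc and manganese, gave 65.0, 50.0 and 69.6 CPM, a log2 fold change of 3.95 (adjusted p = 1.45e-10). Slc37a4, the glucose-6-phosphate translocase of the endoplasmic reticulum that serves glucose release, gave 57.7, 60 and 75.4 CPM (log2 fold change 3.0, adjusted p = 9.11e-09). Slc19a1, the reduced folate carrier, gave 65.0, 56.7 and 40.6 CPM (2.58, adjusted p = 5e-07). All 3 genes were within a narrow band over the proximal libraries. Slc29a3, a lysosomal nucleoside transporter, was more uneven, with 65.0, 26.7 and 17.4 CPM, and its call (3.02, adjusted p = 6.25e-05) was lost in the mutant libraries alone, where a single proximal sum remained (adjusted p = 0.782).

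The 10 members lower in the proximal tubule included the sodium phosphate cotransporter Slc20a1, the lactate exporter Slc16a3 and the large neutral amino acid transporter Slc7a5, none with a UMI among 628782. At 3 counts, that depth allows up to 4.77 CPM over the lineage, so the fitted folds are not bounds. Early nephron cells gave 20.2 CPM ± 10.1 (SD, n = 4) of Slc20a1. The number of lower members moved to 5 without wildtype 1, 4 without wildtype 2 and 3 without mutant 2, while the higher count stayed within 1.5 times of 18 with any library left out.

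In the loop and distal tubule, 21 tested members were higher than in the other lineages (background 10.4%) and 3 were lower (1.58%), with a median log2 fold change of 0.34 against 0.11 over all genes. Slc12a1, the sodium potassium chloride cotransporter that loop diuretics block (chromosome 2, 125152505 to 125230002, plus strand), had the largest fold. It gave 660 CPM in wildtype 1, 428 in wildtype 2, 919 in mutant 1 and 1105 in mutant 2, from 1106 UMIs. All 4 libraries lay far above every other sum. The proximal tubule and the ureteric lineage had 0 UMIs, which allows up to 4.77 and 3.29 CPM, and 22 UMIs in stroma came to 2.32 CPM. In podocytes of mutant 2, 6 UMIs came to 10.2 CPM when scaled among podocytes alone. Whether such low counts outside the loop are expression or background RNA was not tested. The log2 fold change was 9.61 (SE 0.21, adjusted p = 1.71e-77).

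Slc5a3, the myo-inositol transporter that loads cells with this osmolyte, gave 39.1, 29.6, 113 and 99.0 CPM in the loop and distal tubule, in the order above. The mutant libraries lay above the wildtype libraries, and every value was above the proximal range of 7.22 to 17.4 CPM. Its log2 fold change over lineages was 2.46 (SE 0.30, adjusted p = 1.5e-11). Slc4a4 was also called here (2.74, adjusted p = 2.97e-05), as were Slc45a4 (2.48, adjusted p = 0.00148) and the anion exchanger Slc4a3 (2.34, adjusted p = 1.63e-05). Slc39a5 was called from 12 UMIs (2.82, adjusted p = 0.00569) and lost its call without mutant 2 (adjusted p = 0.137). Among the 21, 7 were mitochondrial carriers, a class that held 23 of the 95 tested members, so this count is only a description. They included, chosen after their values were seen, Slc25a5 at 2341, 1813, 1532 and 1738 CPM. Another was Slc25a23, an ATP-magnesium phosphate carrier, at 39.1, 40.4, 56.7 and 52.6 CPM. With lineages found in at least 2 libraries only, 11 members were higher, and without wildtype 2 there were 12 higher and 1 lower.

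**Figure D1:**
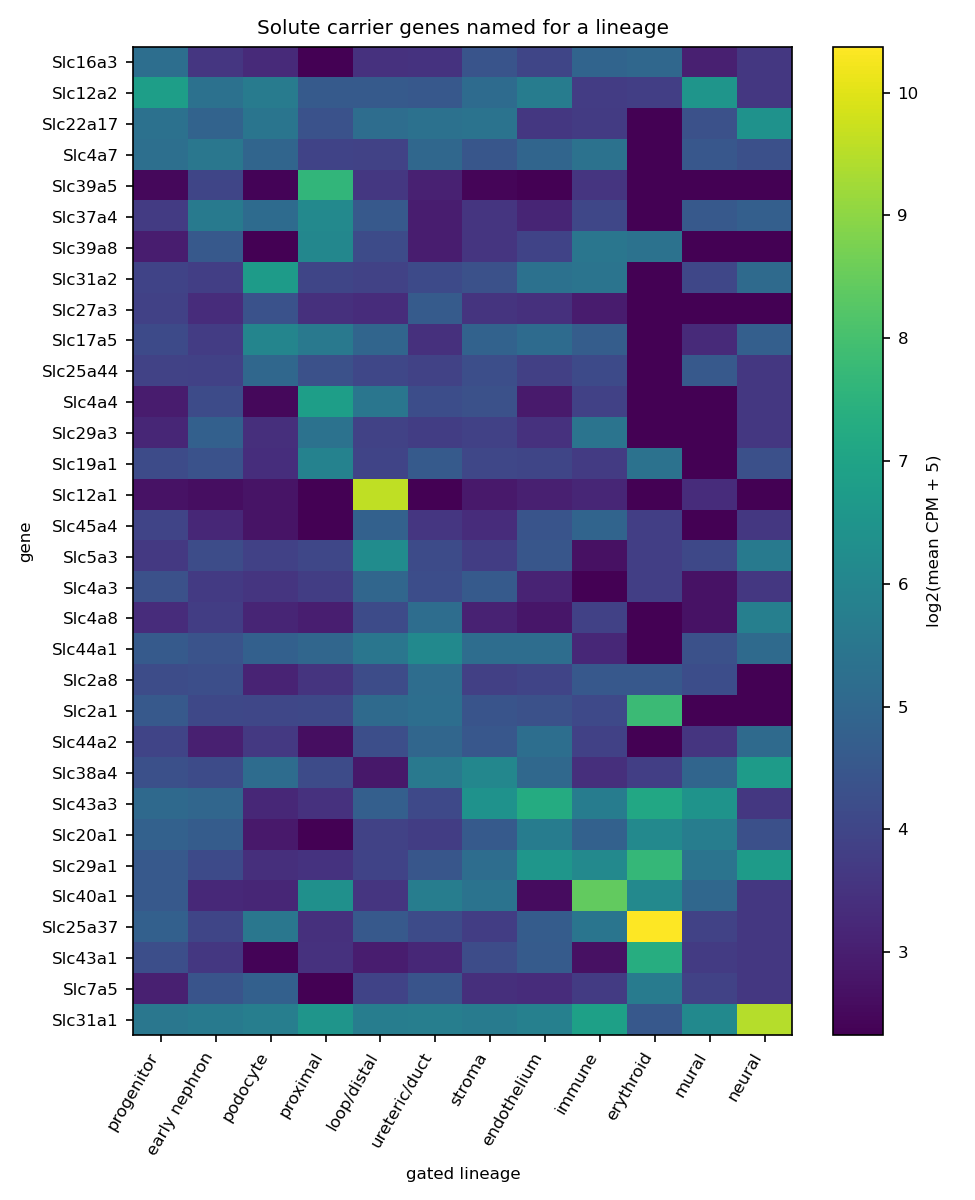
Mean level of members with the largest folds in a lineage (rows) in 12 gated lineages (columns), as log2(mean CPM + 5), from dark (low) to bright (high). The bright cells are Slc12a1 in the loop and distal tubule (778 CPM), Slc25a37 in erythroid cells (1319 CPM, 1 library) and Slc31a1 in neural cells (699 CPM, 1 library).

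The proximal tubule and the loop and distal tubule were then compared directly, since both reabsorb salt and solutes by different routes. Of the tested members, 12 were higher in the proximal tubule (background 5.62%) and 10 were higher in the loop and distal tubule (background 3.78%). Toward the proximal side stood Slc39a5 (log2 difference 4.44, SE 0.49, adjusted p = 4.18e-13), the iron exporter Slc40a1 (3.44, SE 0.51, adjusted p = 3.67e-08) and Slc37a4 (2.44, adjusted p = 5.06e-05). Slc40a1 gave 79.4, 86.7 and 63.8 CPM in the 3 proximal libraries and 2.69 to 11.3 CPM in the 4 loop and distal libraries, with no overlap. Toward the loop stood Slc12a1 and Slc45a4, with 1106 and 34 UMIs there and 0 in the proximal tubule, Slc20a1 with 16 against 0, and the sugar transporter Slc50a1. Slc50a1 gave 23.2 to 47.8 CPM in the loop and distal libraries and 0, 0 and 5.80 CPM in the proximal ones (log2 difference -4.29, adjusted p = 0.000207).

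These counts depended on the libraries. Without wildtype 1, 7 members were higher on the proximal and 6 on the loop side, and without wildtype 2, 5 and 3. Slc20a1 lost its call without wildtype 1 (adjusted p = 0.116), without wildtype 2 (0.126) and without mutant 2 (0.107), and Slc50a1 without wildtype 2 (0.0515). Slc37a4 lost its call with the mutant libraries alone (adjusted p = 0.0631). Each named gene of this comparison kept its direction in every setting that gave a value.

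**Figure D2:**
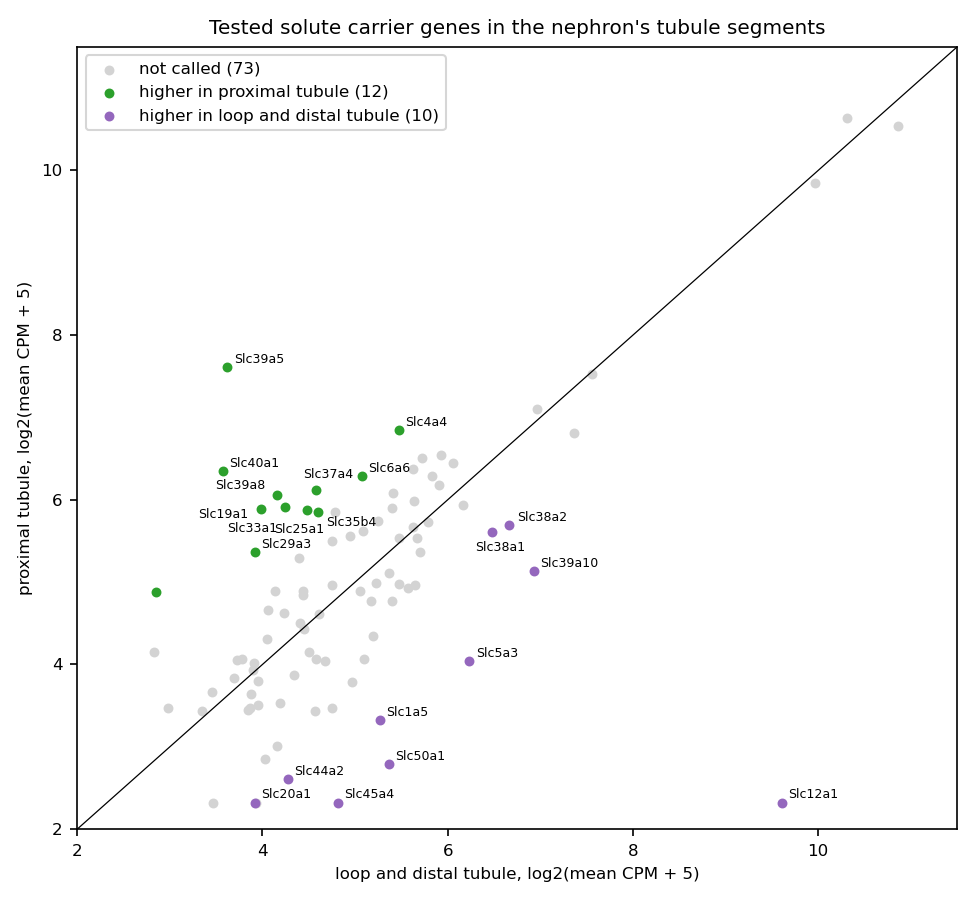
Level of each of the 95 tested members in the loop and distal tubule (x axis) and the proximal tubule (y axis), both log2(mean CPM + 5), with the line of equal level. Slc12a1 stands alone at the lower right and Slc39a5 and Slc40a1 lie farthest above the line.

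In the ureteric bud and collecting duct, 10 tested members were higher (background 8.74%) and 2 lower (1.1%). Choline transporters, sugar transporters and a bicarbonate transporter were among them. Slc44a1, a choline transporter, gave 110, 33.7, 65.1 and 52.3 CPM in wildtype 1, wildtype 2, mutant 1 and mutant 2 (log2 fold change 2.13, SE 0.40, adjusted p = 8.34e-06, lost with the mutant libraries alone at 0.173). Slc4a8, a sodium-driven chloride bicarbonate exchanger, gave 15.0, 23.8, 65.1 and 22.4 CPM (2.51, adjusted p = 0.000712). The glucose transporter Slc2a1 gave 40.1, 37.6, 39.1 and 15.0 CPM, and its call (1.85, adjusted p = 0.0132) was lost without wildtype 1 (0.0533). These values were spread over libraries of 15 to 90 cells. The fatty acid transporter Slc27a3 (3.11, adjusted p = 0.00303) was called from 19 UMIs and lost its call without wildtype 2 (0.0512). Slc2a8 (2.04, adjusted p = 0.00272) lost its call without wildtype 1 (0.0846) or mutant 2 (0.299). Slc44a2 (1.68, adjusted p = 0.0262) lost its call without wildtype 2 (0.226) or mutant 1 (0.115). Without wildtype 2, 4 members were higher and 0 lower, and the lower count was also 1 without wildtype 1 and 0 without mutant 2.

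Against the neighbouring loop and distal tubule, 6 tested members were higher in the loop (background 3.14%) and 5 higher in the ureteric lineage (2.99%). The amino acid transporter Slc38a4 gave 35.0, 45.5, 52.1 and 37.4 CPM in the ureteric lineage and 0, 5.38, 0 and 3.09 CPM in the loop and distal tubule. Every ureteric value was above every loop value, and the log2 difference of loop over ureteric was -3.66 (SE 0.63, adjusted p = 2.61e-06). Slc40a1 gave 45.1, 41.6, 52.1 and 52.3 CPM in the ureteric lineage, again above every loop value (-2.68, SE 0.54, adjusted p = 9.16e-05). Transcripts of Slc40a1 were thus higher in the proximal tubule and the ureteric lineage than in the loop and distal tubule, though the ureteric call was lost with the mutant libraries alone (0.0561). On the loop side stood Slc12a1, the lysosomal sialic acid exporter Slc17a5 (2.10, adjusted p = 0.0139), Slc5a3 (1.96, adjusted p = 0.00127, lost with the wildtype libraries alone at 1.38 and adjusted p = 0.286) and the zinc transporter Slc39a13 (1.68, adjusted p = 0.0386). Slc17a5 lost its call without wildtype 2 (0.249) or mutant 2 (0.0847), and Slc39a13 without wildtype 1 (0.273), wildtype 2 (0.265) or mutant 2 (0.0782). The taurine transporter Slc6a6 (-1.27, adjusted p = 0.00422) was lost without wildtype 2 (0.0537) or mutant 2 (0.0894), and the bicarbonate transporter Slc4a7 (-1.5, adjusted p = 0.0334) without wildtype 1 (0.222) or wildtype 2 (0.42). With the mutant libraries alone the log2 difference of Slc4a7 turned to 0.04. Counts were 3 higher in the loop without mutant 2 and 2 higher in the ureteric lineage without wildtype 2.

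**Figure D3:**
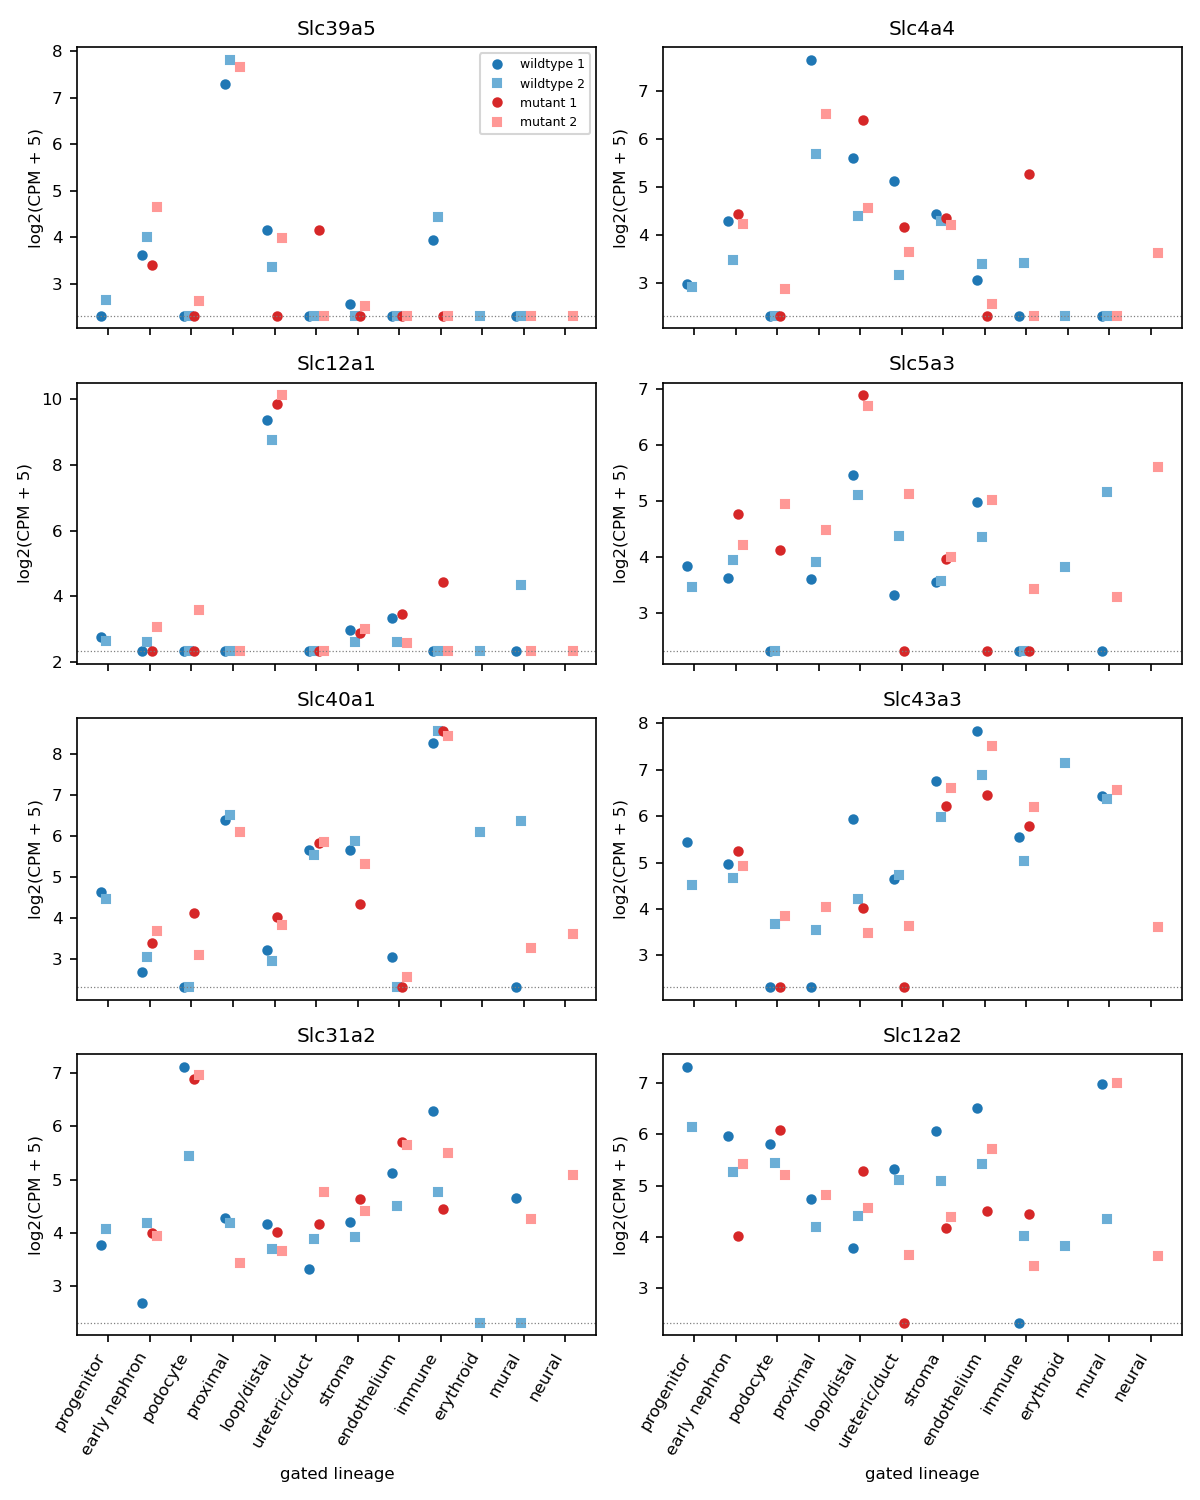
Level of 8 members in each library (colour and shape) and gated lineage (x axis), as log2(CPM + 5); the dotted line marks 0 CPM. Slc12a1 is high in the loop and distal tubule of all 4 libraries, Slc39a5 in the 3 proximal sums, Slc40a1 in immune cells (304 to 370 CPM) and Slc31a2 in podocytes.

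The early steps of the nephron were compared next. In nephron progenitors, 7 tested members were higher than in the other lineages (background 7.25%) and 1 was lower (1.61%). The sodium potassium chloride cotransporter Slc12a2, which unlike Slc12a1 is found in many tissues, gave 155 and 66.1 CPM in wildtype 1 and wildtype 2 (log2 fold change 1.83, SE 0.24, adjusted p = 2.76e-09). The lactate transporter Slc16a3 gave 28.4 and 37.2 CPM (1.85, adjusted p = 3.03e-05). The lipocalin receptor Slc22a17 gave 28.4 and 42.3 CPM (1.74, adjusted p = 9.42e-06, or 0.97, under 2-fold, without erythroid and immune cells), and Slc4a7 gave 38.8 and 27.1 CPM (1.49, adjusted p = 0.00116, lost without wildtype 2 at 0.213). The lower member was Slc48a1, a heme transporter. With lineages found in at least 2 libraries only, 3 members were higher and 4 lower, and without wildtype 2, 3 were higher.

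In the early nephron, 6 tested members were higher (background 9.52%) and 3 lower (1.79%), and 8 were higher and 7 lower than in progenitors (background 5.87% and 3.79%). The 4 genes with the largest differences upward were Slc39a5, Slc39a8, Slc37a4 and Slc29a3, all also called higher in the proximal tubule. Slc39a5 gave 7.35, 11.0, 5.54 and 20.3 CPM in wildtype 1, wildtype 2, mutant 1 and mutant 2, against 0.633 CPM in progenitors (log2 difference 3.58, SE 0.66, adjusted p = 6.6e-06). Slc37a4 gave 30.9, 40.9, 55.4 and 50.4 CPM, against 8.16 CPM (2.21, SE 0.35, adjusted p = 1.52e-07). Slc39a8 gave 20.6, 18.8, 16.6 and 19.0 CPM, against 2.90 CPM (2.50, SE 0.47, adjusted p = 9.23e-06). For these 3 genes every early nephron library was above the progenitor mean. Slc29a3 was also higher (1.98, adjusted p = 0.00129, lost without wildtype 2 at 0.254). On the progenitor side stood Slc44a2 (-1.91, adjusted p = 0.00137), Slc40a1 (-1.83, adjusted p = 0.000239), Slc16a3 (-1.66, adjusted p = 0.00032) and Slc4a3 (-1.32, adjusted p = 0.031). Progenitor sums exist in the wildtype libraries alone, and without wildtype 2 there were 5 higher and 2 lower members, with Slc44a2 (0.262) and Slc4a3 (0.498) lost. Slc4a3 was also lost without mutant 2 (0.0626). Without wildtype 1, 3 were lower than in progenitors. Without mutant 1, 10 members were higher in the early nephron than in the other lineages, and without wildtype 2, 5 were lower.

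From the early nephron to the proximal tubule, 14 tested members were higher in the tubule (background 10.4%) and 12 lower (7.86%). Slc40a1 showed the largest difference upward, from 4.54 CPM ± 2.76 (SD, n = 4) to 76.6 ± 11.7 (n = 3), a log2 difference of 3.96 (SE 0.44, adjusted p = 1.53e-13). Slc39a5 (3.88, adjusted p = 4.28e-15) and Slc4a4 (3.09, adjusted p = 2.29e-10) followed, then Slc33a1, which brings acetyl-CoA into the endoplasmic reticulum (2.30, adjusted p = 6.18e-06). Slc39a5 thus stood in the order progenitor, early nephron, proximal tubule, with each step past the test. On the lower side Slc20a1, Slc7a5 and Slc16a3 had 84, 48 and 34 UMIs in the early nephron and 0 in the proximal tubule, and the cationic amino acid transporter Slc7a1 had a log2 difference of -2.31 (adjusted p = 0.0276). Slc16a3 lost its call without wildtype 1 (0.105), Slc7a5 without wildtype 1 (0.0691) or mutant 2 (0.253), and Slc7a1 without mutant 2 (0.109). Without wildtype 1, 6 members were lower.

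In podocytes, the filtering cells of the glomerulus, 13 tested members were higher (background 11.8%) and 7 lower (3.77%). Slc31a2, a relative of the copper importer Slc31a1, gave 134, 38.5, 113 and 120 CPM in wildtype 1, wildtype 2, mutant 1 and mutant 2 (log2 fold change 3.20, SE 0.32, adjusted p = 2.83e-16). Slc17a5 gave 113, 61.6, 25.0 and 35.3 CPM (2.12, adjusted p = 1.38e-05), with the wildtype libraries above the mutant ones. Slc27a3 (2.84, adjusted p = 0.00568) came from 21 UMIs and was lost without wildtype 2 (0.0536), and Slc25a44, a mitochondrial carrier of branched-chain amino acids (1.99, adjusted p = 0.000766), without mutant 2 (0.186). Without mutant 2, which held 250 of the 342 podocytes, 4 members were higher and 4 lower, and without wildtype 2, 4 were lower.

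Outside the epithelium, 14 tested members were higher in stroma (background 15.1%), 17 in endothelium (12.5%), 17 in immune cells (13.5%), 12 in erythroid cells (4.99%), 3 in mural cells (6.17%) and 8 in neural cells (7.6%). Lower members numbered 4 in stroma (1.21%), 3 in endothelium (2.65%), 3 in immune cells (4.4%), 2 in erythroid cells (1.92%), 3 in mural cells (0.908%) and 0 in neural cells (3.18%). In stroma, Slc38a4 gave 56.1, 59.1, 67.4 and 60 CPM in wildtype 1, wildtype 2, mutant 1 and mutant 2 (log2 fold change 1.77, adjusted p = 7.93e-14). Slc4a4 counted as higher in stroma (1.71, adjusted p = 0.00574) at 14.9 CPM ± 1.28 (n = 4), below its tubule levels, since several lineages had few or no UMIs of it, and it lost the call without wildtype 2 (0.0657). In endothelium, Slc43a3, a purine nucleobase transporter, gave 223, 113, 83.2 and 177 CPM (2.55, SE 0.17, adjusted p = 1.73e-28). The nucleoside transporter Slc29a1 gave 91.6, 103, 83.2 and 77.2 CPM there (1.79, adjusted p = 1.75e-14), and was lower in proximal tubule, loop and distal tubule, ureteric, early nephron and podocyte cells.

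In immune cells Slc40a1 gave 304, 370, 369 and 339 CPM, above every other lineage (4.70, SE 0.23, adjusted p = 1.77e-38), whereas endothelium held 4 UMIs of it among 4076197. In erythroid cells the mitochondrial iron importer Slc25a37 gave 1319 CPM from 145 UMIs (6.57, adjusted p = 1.64e-41), or 613 CPM without TMM scaling. Slc2a1 followed with 24 UMIs and Slc43a1, an amino acid transporter, with 17. In mural cells Slc12a2 gave 122, 15.4 and 123 CPM in wildtype 1, wildtype 2 and mutant 2 (2.10, adjusted p = 8.93e-05), and its call was lost without mutant 2 (0.612). The other mural calls were Slc20a1, lost without wildtype 1 (0.132), wildtype 2 (0.0634) or mutant 2 (0.119), and Slc43a3, lost without mutant 2 (0.27), which left 0 members in either direction. In neural cells the copper importer Slc31a1 gave 699 CPM from 96 UMIs (3.44, adjusted p = 7.8e-23). Mural markers summed to 1757 CPM and early nephron markers to 1368 CPM in that neural sum, and their part in the neural calls was not tested. Without wildtype 2, 8 members were higher in stroma, and 11 were higher and 8 lower in endothelium. Without wildtype 1, 11 members were higher and 0 lower in immune cells, where the lower count was 1 without either mutant library. Without mutant 2, 2 were lower in stroma and 1 in erythroid cells. With lineages found in at least 2 libraries only, 8 members were higher in stroma and 8 in endothelium.

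The transporters' helpers were read from a list of 28 genes for pumps, potassium and chloride channels, carbonic anhydrases, scaffolds, kinases and transcription factors, of which 26 were tested. In the proximal tubule 17 of the 26 were higher (background 11.6% of all genes), in the loop and distal tubule 16 were higher (10.4%) and 1, the kinase gene Wnk1, was lower (1.58%), and in the ureteric lineage 7 were higher (8.74%). The early nephron had 10 higher (9.52%) and podocytes 4 (11.8%), with none lower. In progenitors 2 were higher (7.25%) and 4 lower (1.61%), in stroma 4 higher (15.1%) and 3 lower (1.21%), and in endothelium 3 higher (12.5%) and 3 lower (2.65%). Immune and erythroid cells had 3 higher each (13.5% and 4.99%), mural cells 2 higher (6.17%) and 1 lower (0.908%), and neural cells 1 higher (7.6%). Pdzk1, a scaffold that anchors transporters under the brush border, gave 1292, 607 and 696 CPM in wildtype 1, wildtype 2 and mutant 2 in the proximal tubule (log2 fold change 8.33, SE 0.22, adjusted p = 2.82e-67), against 15.9 CPM ± 4.54 (n = 4) in the loop and distal tubule. Tmem27, collectrin, a partner of amino acid transporters, gave 455, 427 and 191 CPM there (8.17, SE 0.33, adjusted p = 4.98e-47). Fxyd2, a subunit of the sodium pump, gave 1559, 1636 and 951 CPM in the proximal tubule and 456, 444, 454 and 282 CPM in the loop and distal tubule. In the loop and distal tubule Kcnj1, the potassium channel that recycles potassium beside Slc12a1, gave 52.1, 61.9, 22.7 and 55.7 CPM (7.71, SE 0.58, adjusted p = 2.87e-23).

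Over the 10 lineages with at least 2 libraries, each member's range was taken as the highest minus the lowest log2(mean CPM + 5). Slc12a1 had the widest range, 7.29, followed by Slc40a1 with 5.85. Slc4a4 (4.52) was widest among bicarbonate and anion families, Slc5a3 (3.55) among sugar families and Slc19a1 (3.56) among vitamin families. In the class of amino acid families the widest was Slc43a3 (4.05), which carries purine nucleobases. The narrowest were the Golgi transporter Slc35a4 (0.56) and the zinc exporter Slc30a7 (0.60). Median ranges were 1.54 for nucleotide sugar and Golgi families, 1.62 for mitochondrial carriers, 1.66 for metal ion families, 2.04 for amino acid families and 2.92 for sugar families. Members of low count have a wide range from counting alone, so the order of classes is a description. The highest mean fell in the proximal tubule for 20 members, in immune cells for 17, in podocytes for 14, in the loop and distal tubule and in mural cells for 12 each, in stroma for 7 and in the early nephron for 4. Lineages of low depth can hold a highest mean from counting error. Proximal tubule, immune, podocyte and mural cells held 2.16%, 1.94%, 3.65% and 1.06% of gated UMIs, against 32% in stroma. The same count over all genes was not taken, so it is a description. Of the 95 tested members 70 (73.7%) were called higher in at least 1 lineage, against 55.7% of the 9915 genes tested, and 47 (49.5%) in at least 1 of the 6 epithelial lineages, against 33.1%. The other 25 tested members were called higher in none, among them Slc25a4, Slc25a3, Slc38a2 and Slc35a4. Members were chosen by total count, and the 9915 genes were not matched to them on count. The 19 members not tested are outside these shares, and a gene high in 1 lineage can pass the filter through it. The differences from all genes are therefore only a description.

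**Figure D4:**
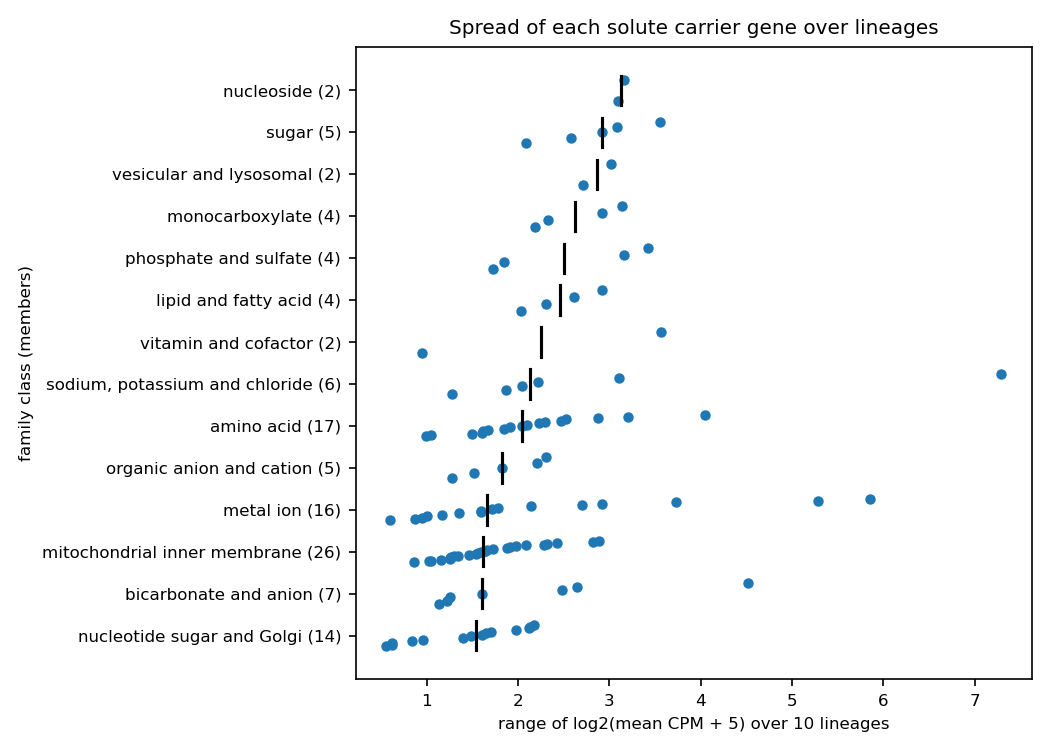
Range of each member's level over 10 lineages (x axis, in log2 units of mean CPM + 5) by family class, with the number of members in parentheses; each point is a member and the bar is the class median. Slc12a1 at 7.29 lies farthest right, and nucleotide sugar and Golgi members lie between 0.56 and 2.17.

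Mutant and wildtype libraries were compared over all kept cells, the question behind the series. Of 114 members, all tested, 1 was called, against 1.1% of 15770 genes (0.805% higher and 0.292% lower in mutant libraries), and 8 of 114 had an unadjusted p below 0.05, against 9.44% of all genes; DESeq2 also called 1. The called member was Slc7a5 (chromosome 8, 121881150 to 121907694, minus strand), which gave 4.79 and 4.24 CPM in wildtype 1 and wildtype 2 and 15.5 and 13.7 CPM in mutant 1 and mutant 2, from 44, 85, 48 and 255 UMIs. Both mutant libraries were above both wildtype libraries, and the log2 fold change was 1.69 (SE 0.39, adjusted p = 0.0242). The call was lost without wildtype 1 (0.0529), without wildtype 2 (0.157) and with no filter on low counts (0.0563). Its heavy chain partner Slc3a2 gave 50.3 and 63.3 against 54.7 and 58.1 CPM, with overlapping genotypes. Without wildtype 1, 4 members were called, and 2 without either mutant library. Beside this, the nuclear RNA Malat1 gave 2220 and 1884 against 4509 and 6041 CPM, and its part in the result was not tested.

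The remaining 7 members with an unadjusted p below 0.05 did not pass the adjustment, and 6 of them are described, chosen after their values were seen. Slc16a3 gave 15.8 and 22.3 against 8.74 and 6.66 CPM (log2 fold change -1.34, SE 0.39, adjusted p = 0.106). Slc12a2 gave 71.9 and 36.6 against 19.7 and 28.4 CPM (-1.15, SE 0.38, adjusted p = 0.201), and Slc12a1 gave 24.0 and 14.1 against 34.9 and 52.5 CPM (1.22, SE 0.38, adjusted p = 0.148). In all 3 the genotypes did not overlap, as in 39 of the 114 members. The share of all genes without overlap was not counted, and 2 libraries against 2 can often separate without any difference. Slc39a13 (1.16, adjusted p = 0.178), Slc31a2 (0.81, adjusted p = 0.452) and the monocarboxylate transporter Slc16a1 (-0.78, adjusted p = 0.496) were others. The cell makeup moved with genotype. Slc16a3 was called higher in progenitors, stroma and immune cells, and Slc12a2 in progenitors, endothelium and mural cells. Progenitors made up 16.2% and 14.6% of kept cells in wildtype libraries, against 0% and 0.185% in mutant ones. Slc39a13 was called higher in stroma, and Slc31a2 in podocytes, endothelium and immune cells. Stroma made up 15.3% and 10.8% against 32.6% and 31.9%, and podocytes 1.94% and 0.731% against 2.59% and 5.77%. Loop and distal cells made up 2.16% and 1.42% against 2.10% and 2.93%. The part of these shares in the differences was not tested, and in a sum over all cells, fewer cells of a type and less RNA per cell cannot be told apart.

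**Figure D5:**
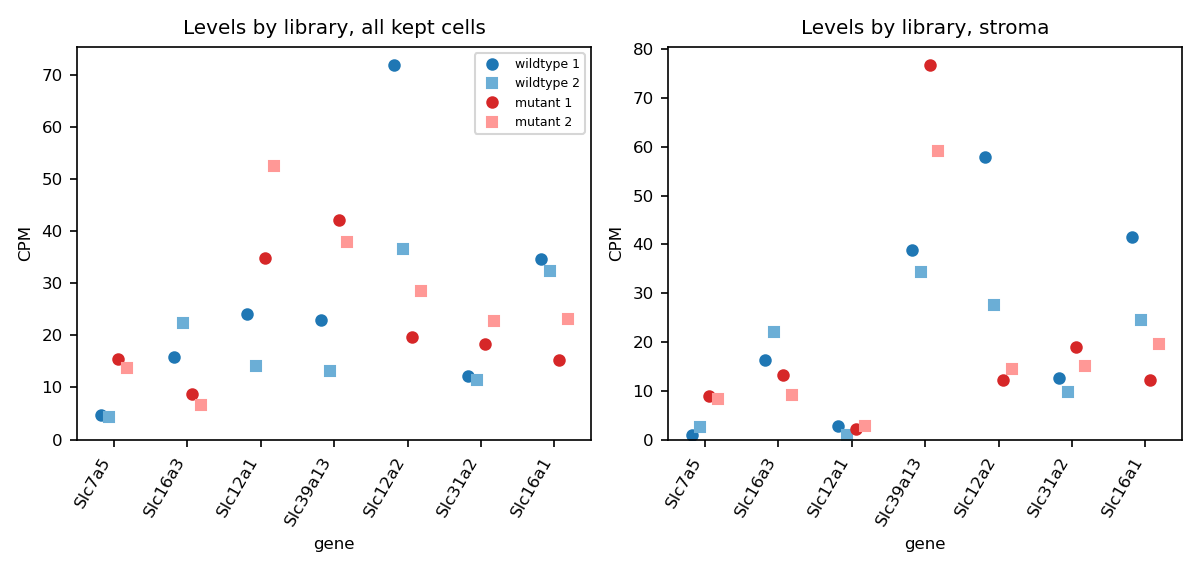
CPM of 7 of the 8 members with an unadjusted p below 0.05 between genotypes over all kept cells (left), and of the same members in stroma (right), 1 point per library. Slc7a5 in all cells (4.24 to 4.79 CPM in wildtype, 13.7 to 15.5 in mutant) was the member past the adjusted threshold.

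Within lineages the comparison was limited to the cells of 1 gate, whose makeup may still differ between genotypes, which was not tested. CPM come from each lineage's own fit. No member was called in stroma (0 of 107 tested, background 0.261%), early nephron (0 of 94, background 0%), endothelium (0 of 79, background 0.0978%), loop and distal tubule (0 of 42, background 0%), immune cells (0 of 12, background 0%), ureteric bud and collecting duct (0 of 12, background 0%) or podocytes (0 of 11, background 0%). Unadjusted p-values below 0.05 numbered 7, 2, 1, 2, 0, 0 and 0 in that order, against 6.4%, 3.43%, 4.4%, 4.52%, 5.81%, 7.26% and 3.16% of all genes tested in each, and DESeq2 called 0 members in each. In stroma 1 member was called without wildtype 1 and 1 without wildtype 2, and in the early nephron 1 without wildtype 1. Slc7a5 was higher in every mutant library than in every wildtype library in stroma (0.904 and 2.56 against 8.89 and 8.26 CPM; log2 fold change 2.12, adjusted p = 0.425) and in the early nephron (7.39 and 1.60 against 33.5 and 21.7 CPM; 2.80, adjusted p = 0.999). Neither passed, and the wildtype values rest on 1 to 5 UMIs per library. In immune cells Slc7a5 was lower in the mutant libraries (11.4 and 17.9 against 0 and 6.3 CPM). In endothelium the genotypes overlapped (4.57 and 7.11 against 0 and 6.78 CPM). It was higher in both mutant libraries in podocytes, loop and distal tubule and ureteric cells. Slc7a5 was not tested in any of these further lineages, where wildtype values rest on 0 to 7 UMIs per library.

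Some genes, chosen after their values were seen, had genotypes that did not overlap within a lineage without passing the test. Of the 114 members, 45 had genotypes that did not overlap in the loop and distal tubule, 41 in stroma and 41 in the early nephron. The share of all genes without overlap was not counted. With 2 libraries against 2, values can often separate without any difference between genotypes, so these counts are only a description. In the loop and distal tubule Slc12a1 gave 722 and 466 against 1083 and 1229 CPM (log2 fold change 0.97, SE 0.40, adjusted p = 1). Slc5a3 gave 42.7 and 32.3 against 134 and 110 CPM (1.67, SE 0.50, adjusted p = 0.842). Both mutant libraries lay above both wildtype libraries in each gene. In stroma Slc12a2 gave 42.8 CPM ± 21.4 in wildtype and 13.4 ± 1.64 in mutant libraries (SD, n = 2 each; log2 fold change -1.61, SE 0.43, adjusted p = 0.178) and Slc40a1 gave 42.5 and 51.2 against 14.4 and 31.9 CPM (-0.91, SE 0.40, adjusted p = 0.67). The proximal tubule and the progenitors could not be compared, for want of cells in mutant 1 and in both mutant libraries. The test of whether the profile over lineages differs by genotype called 0 of 59 tested members (background 1.17%), 5 at an unadjusted p below 0.05, against 8.06% of the genes tested, and DESeq2 called 0; 1 was called without mutant 1. With 2 libraries per genotype, and no label that ties them to separate animals, p-values measure only how far these libraries differ, and that spread may be technical.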

How the data were processed

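Single-cell RNA counts were measured by Drop-seq in 4 kidney libraries. Reads were aligned with Bowtie2 2.2.7 to mm10, per the submitters' processing notes, and the authors deposited tables of raw UMI counts per gene and barcode. The annotation, the use of strand and the collapsing of UMIs are not given in the sources used here. Barcodes with at least 500 genes and at most 10% mitochondrial UMIs were kept, and the 5% with the highest Scrublet doublet score per library (618 barcodes) were removed. Gated cells were summed per library and lineage where at least 10 were found, which gave 38 sums.

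Sums were tested with edgeR's quasi-likelihood test (edgeR 4.0.16, limma 3.58.1, R 4.3.3), with TMM scaling, a filter on low counts and Benjamini-Hochberg adjustment over all genes tested. Each lineage was compared with the equally weighted mean of the others, with library as a block, and 4 pairs of neighbouring lineages in the same fit. Genotypes were compared 2 libraries against 2. DESeq2 1.42.0, other gates and filters, single genotypes and left-out libraries were alternatives. Tables were made with Python 3.11.15, scanpy 1.11.5 and pandas 2.3.3.

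Genes named for a lineage were the called members with the largest log2 fold change, up to 6 in tubule lineages and 4 elsewhere, up to 4 per direction between neighbours, and every member called by genotype. Members beside the 500 UMI limit, the widest and narrowest range of each class, and up to 6 called partner genes per lineage were named too. Members, marker lists and rules were chosen with earlier results of these data known. On simulated counts for the proximal tubule comparison (9915 genes), 33% of 2-fold and 99% of 4-fold changes were recovered. For genotype over all cells (15770 genes), the shares were 24% and 100%. Changes were put only into genes above a minimum mean level, with a set spread not estimated from these data. The shares therefore do not cover genes of low count such as Slc7a5. In the proximal tubule comparison a 2-fold change lies on the cut-off of a call. The 3-count floors given for lineages at 0 UMIs take in counting error alone. Some genes that these rules pick are not reported here.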

Additional observations from a re-analysis of the deposited data

How the results depend on the processing

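For named genes, 132 gene and comparison pairs gave 1816 alternative values, of which 1679 kept direction and side of the threshold, 136 kept direction and lost the call, and 1 reversed. The reversal was Slc4a7 between loop and ureteric cells, -1.5 as reported and 0.04 with the mutant libraries alone. The cause of each change was not tested, beyond the fewer libraries or genes that a setting holds. Depth limits the rarer lineages most: 3 UMIs over a lineage come to 4.77 CPM in the proximal tubule and 0.321 CPM in stroma, counting error only. The replicate numbers were not shown to pair libraries: deviations of wildtype 1 and mutant 1 from their genotype means correlated at 0.0764. With 2 libraries per genotype, the value for wildtype 1 and mutant 2 must be the negative of it, -0.0764, and is no second check. Gates do not apply to the genotype test over all cells, and no value could be had for the ureteric genotype test at 4 markers, erythroid cells without wildtype 2, neural cells without mutant 2, or progenitors in the mutant libraries.

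Counts are members called under each setting that moved a count by over 1.5 times, with the reported count in parentheses. DESeq2 gave 4 (7) lower in early nephron against progenitors, 6 (12) lower in proximal tubule against early nephron, 6 (3) lower in early nephron, 11 (17) higher and 12 (3) lower in endothelium and 1 (2) lower in erythroid. Further counts were 0 (3) lower in immune, 1 (3) lower in mural, 4 (7) higher and 6 (1) lower in progenitors, 9 (14) higher and 7 (4) lower in stroma and 1 (2) lower in ureteric cells. A minimum of 1000 genes per cell gave 1 (2) lower in erythroid and 1 (2) lower in ureteric cells. A gate of 2 markers gave 5 (3) lower in mural and 1 (0) called in the lineage profile by genotype. A gate of 4 markers gave 1 (3) higher in mural and 6 (10) higher in ureteric cells. Lineages found in at least 2 libraries only, a setting chosen after seeing the data, gave 5 (3) lower in early nephron, 8 (17) higher and 7 (3) lower in endothelium, 11 (21) higher in loop, 3 (7) higher and 4 (1) lower in progenitors and 8 (14) higher in stroma. Further counts were 6 (10) higher in ureteric cells. The mutant libraries alone gave 3 (6) higher and 2 (5) lower in loop against ureteric cells, 4 (14) higher and 1 (12) lower in proximal tubule against early nephron, 2 (12) higher and 3 (10) lower in proximal tubule against loop, 10 (17) higher and 6 (3) lower in endothelium and 10 (17) higher in immune. Further counts were 11 (21) higher in loop, 4 (7) lower in podocyte, 7 (18) higher and 0 (10) lower in proximal tubule, 6 (14) higher in stroma and 4 (10) higher and 0 (2) lower in ureteric cells. No filter on low counts gave 0 (1) called over all cells by genotype, 1 (2) lower in erythroid, 12 (7) higher in progenitors, 2 (0) lower in neural and 1 (0) called in the lineage profile by genotype. No mitochondrial limit gave 4 (7) lower in early nephron against progenitors. The replicate block gave 2 (1) called over all cells by genotype. The wildtype libraries alone gave 3 (6) higher and 3 (5) lower in loop against ureteric cells, 1 (3) lower in early nephron, 1 (3) lower in endothelium, 1 (2) lower in erythroid and 1 (3) lower in immune. Further counts were 12 (21) higher and 1 (3) lower in loop, 0 (3) higher and 0 (3) lower in mural, 11 (7) higher in progenitors, 4 (13) higher and 4 (7) lower in podocyte and 3 (10) lower in proximal tubule. There were also 1 (4) lower in stroma and 1 (2) lower in ureteric cells. Leaving out erythroid and immune cells gave 6 (3) lower in early nephron, 11 (3) lower in endothelium, 1 (3) lower in mural, 4 (7) higher and 4 (1) lower in progenitors and 9 (14) higher in stroma. Leaving out each library in turn gave 5 to 8 (8) higher and 2 to 7 (7) lower in early nephron against progenitors, 3 to 7 (6) higher and 2 to 5 (5) lower in loop against ureteric cells, 6 to 12 (12) lower in proximal tubule against early nephron, 5 to 12 (12) higher and 3 to 10 (10) lower in proximal tubule against loop and 1 to 4 (1) called over all cells by genotype. Further counts were 0 to 1 (0) called by genotype in early nephron, 0 to 1 (0) called by genotype in stroma, 7 to 10 (6) higher and 2 to 5 (3) lower in early nephron, 11 to 19 (17) higher and 2 to 8 (3) lower in endothelium and 1 to 2 (2) lower in erythroid. There were also 11 to 18 (17) higher and 0 to 3 (3) lower in immune, 12 to 17 (21) higher and 1 to 3 (3) lower in loop, 0 to 3 (3) higher and 0 to 3 (3) lower in mural, 3 to 9 (7) higher in progenitors and 4 to 13 (13) higher and 4 to 7 (7) lower in podocyte. It also gave 3 to 10 (10) lower in proximal tubule, 8 to 19 (14) higher and 2 to 5 (4) lower in stroma, 4 to 9 (10) higher and 0 to 2 (2) lower in ureteric cells and 0 to 1 (0) called in the lineage profile by genotype.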

Other observations

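Solute carrier genes below 500 UMIs held segment patterns of their own, and those named here were chosen after their values were seen, with no test. The proximal tubule held 2.16% of the UMIs of gated cells. It held 67 of 75 gated UMIs of the urate transporter Slc22a12, 55 of 59 of Slc7a13, 62 of 75 of Slc5a8 and 59 of 79 of the sodium glucose cotransporter Slc5a1. It also held 81 of 140 of the vitamin C transporter Slc23a1, 50 of 97 of the glucose transporter Slc2a2 and 80 of 163 of Slc47a1.

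Outside the tubule, erythroid cells held 153 of 159 gated UMIs of Slc4a1, the red cell anion exchanger. Immune cells held 107 of 119 of Slc11a1, a metal transporter of phagocytes. Neural cells held 66 of 94 of Slc18a1 and 89 of 160 of Slc18a2, the vesicular monoamine transporters.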
